A study of Mus musculus with 16 samples.

Results

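The mitochondrial carriers are transport proteins of the inner mitochondrial membrane encoded by the Slc25 gene family. The data described here are the liver mRNA levels of 41 of these genes, of 18193 genes with a probe set of their own on the array. A gene was included if at least 1 probe set was annotated to it alone and its symbol began with Slc25a. Slc25a1, Slc25a17 and Slc25a20 also met these conditions and were left out by name. The 41 genes were represented by 88 probe sets, and each gene is described by its brightest probe set over all 16 arrays. The rule used symbols and mean brightness, and no difference between groups, but the carriers were chosen with earlier results of these data known.

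Livers came from male mice aged 12 to 20 weeks, 1 mouse per Affymetrix whole-genome mouse array and 4 mice per group. Wild-type mice were of strain 129S1/SvImJ and PPARα-null mice of strain 129S4/SvJae. The null line carries a germline disruption of the receptor gene, so the receptor is missing from all tissues and not from hepatocytes alone. Either genotype received control food or food holding 0.1% Wy14643 by weight for 5 days. Wy14643 is a synthetic agonist of PPARα, the nuclear receptor that adapts liver metabolism to fasting. Differences between the genotypes include those between the substrains and cannot be told apart from them. Responses to the drug compare mice of the same substrain.

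Most carriers share a fold of membrane-spanning helices built from repeated modules and exchange one solute for another between cytosol and matrix. They pass ADP and ATP, phosphate, dicarboxylates, amino acids and cofactors, and so tie oxidative phosphorylation, the urea cycle and fatty acid oxidation to the cytosol. In liver, PPARα is best known for raising the genes of mitochondrial and peroxisomal fatty acid oxidation. The receptor binds DNA together with RXR at direct repeats of the letters AGGTCA spaced by a single base.

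Values below are log2 intensities unless a fold is named, and a difference was called at an adjusted p under 0.01 and a fold over 1.5 in limma. Array medians lay between 2.15 and 2.24, and a group mean at or below 2.24 is named dim because it is not distinguished from background. Of the 41 carriers 32 were above this level in all groups, 4 in some groups and 5 in none. The undetected carriers were Slc25a2, Slc25a18, Slc25a31, Slc25a35 and Slc25a54. Correlation of arrays within a group was 0.987 to 0.995. The receptor gene itself, Ppara, averaged 9.92 in wild-type mice on control food, 10.78 in wild-type mice on Wy14643, and 9.29 and 9.63 in null mice on the same diets. Its other probe sets were called lower in null mice on both diets, by 3.01-fold and 2.60-fold on control food and by 4.59-fold and 2.70-fold on Wy14643, with no overlap. That is the direction of the labels, although signal remained in the null mice.

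In wild-type mice, Wy14643 raised 8 carriers and lowered 5, which were 19.5% and 12.2% of the 41. Over all 18193 genes 7.72% were called higher and 6.74% lower. Carriers raised were Slc25a4, Slc25a10, Slc25a30, Slc25a32, Slc25a33, Slc25a34, Slc25a42 and Slc25a46, and those lowered were Slc25a15, Slc25a38, Slc25a44, Slc25a45 and Slc25a48. The median difference of the 41 was 0.15, beside -0.03 over all genes. In PPARα-null mice the same treatment gave 0 called carriers in limma, with 6 at an unadjusted p under 0.05 and a smallest adjusted p of 0.150. Of all genes 0.0275% were called higher and 0% lower there. The differences in the null mice ran from -0.65 (Slc25a25) to 0.38 (Slc25a37).

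The response of wild-type mice was set against that of null mice by the interaction, the difference between the responses. It was called higher in wild type for 8 carriers (19.5%, beside 5.38% of all genes) and lower for 3 (7.32%, beside 4.62%). Between the genotypes on Wy14643, 10 carriers were higher in wild-type mice (24.4%, beside 8.12% of all genes) and 5 were lower (12.2%, beside 7.13%). These comparisons share the wild-type livers on Wy14643 and are not independent of each other. On control food only Slc25a22 was called, higher in wild type (2.44% of the carriers, beside 0.401% of all genes), and 0 carriers were called lower (0.143% of all genes). Over the 5 comparisons 16 carriers were called at least once and 25 never, and of all genes 18% were called at least once. A plot of both responses by class shows where in the family the changes lay.

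**Figure D1:**
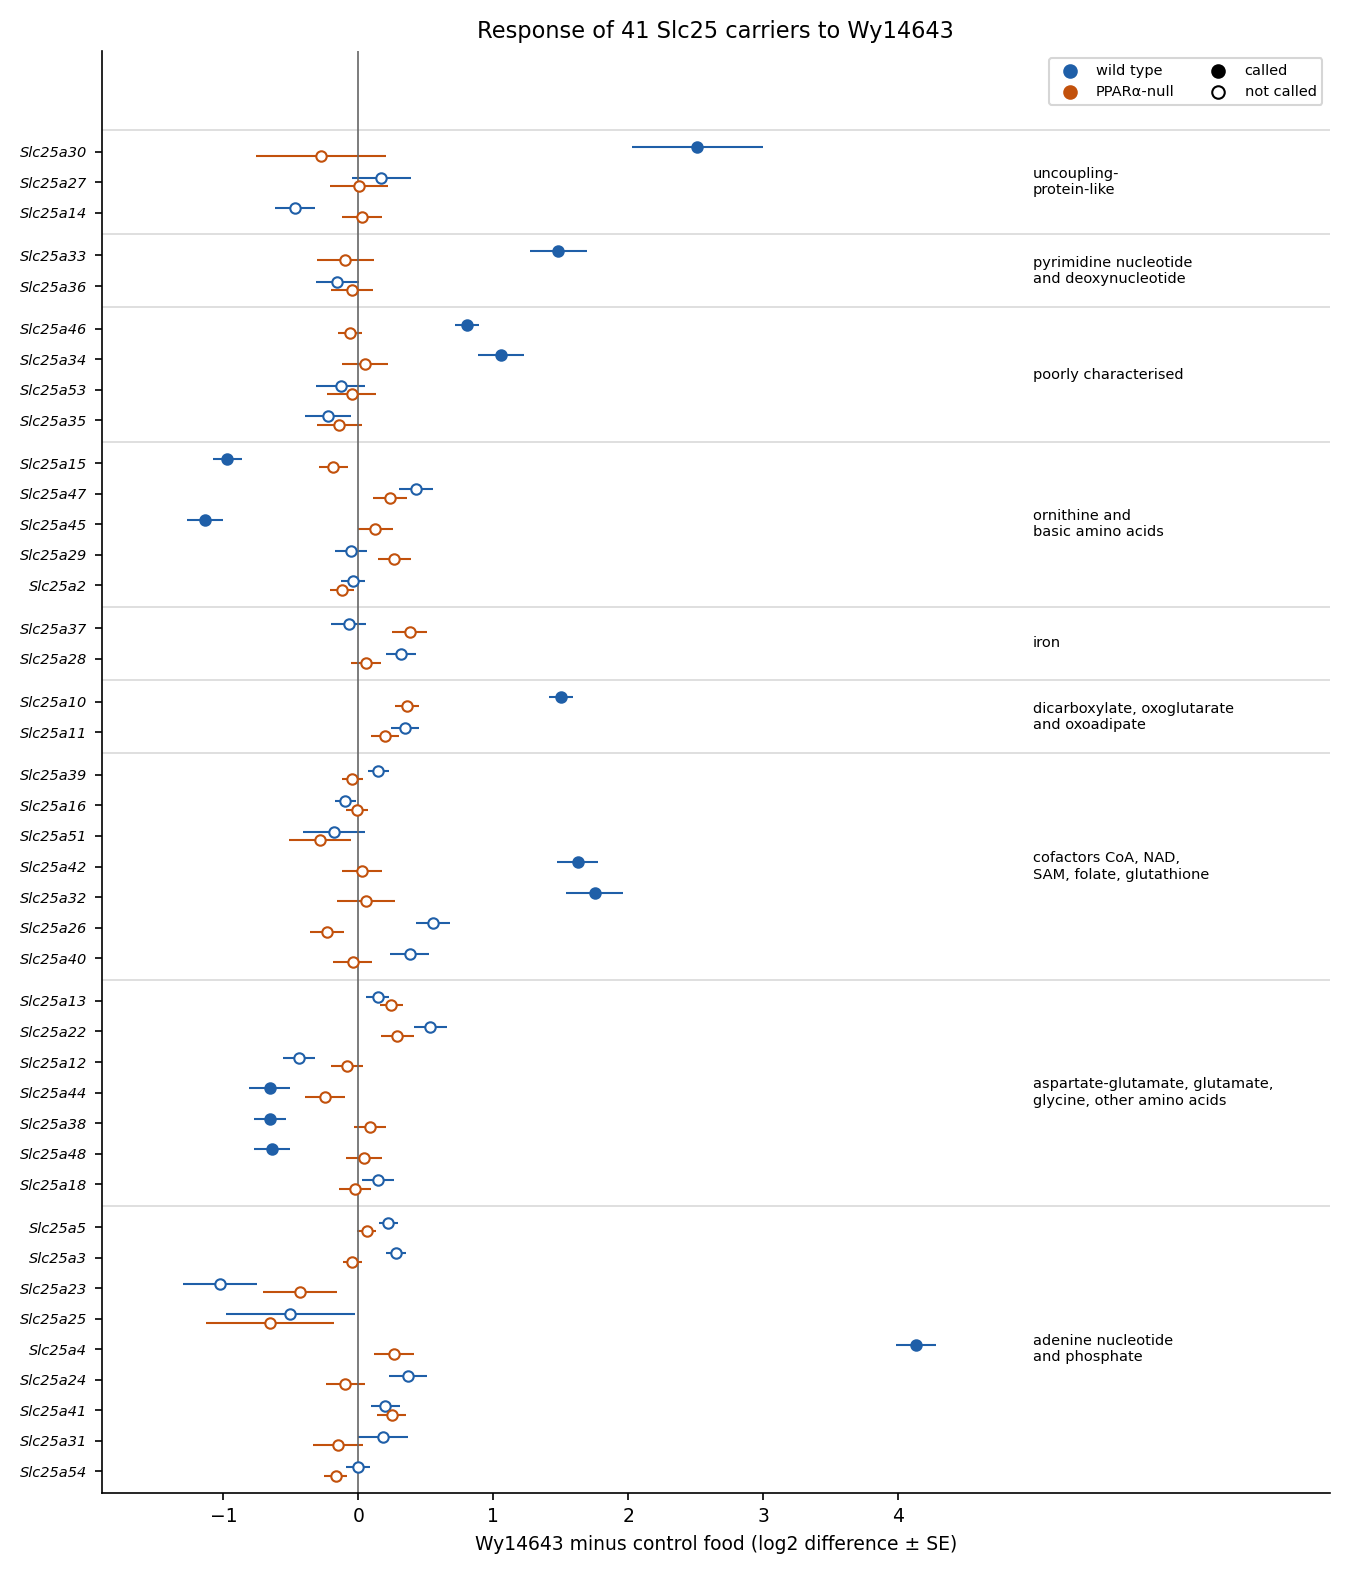
Response of each of 41 Slc25 carriers to Wy14643, as the log2 difference from control food with its standard error (horizontal axis), in wild-type mice (blue) and PPARα-null mice (orange), 4 livers per group. Genes are grouped by the class they were placed in and filled points were called. Slc25a4 lies farthest to the right at 4.13, and all orange points are open. Filled points below 0 occur in the classes named for amino acids, where Slc25a48 was placed by assumption.

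The largest response was that of Slc25a4, which encodes the ADP/ATP carrier ANT1, the isoform of heart and skeletal muscle. Its level in the wild-type livers on control food was 4.88, 4.87, 4.93 and 4.93, and on Wy14643 it was 8.64, 9.14, 8.78 and 9.56. Null livers had 4.45, 4.55, 4.66 and 4.63 on control food and 4.83, 4.98, 4.86 and 4.66 on Wy14643. The treated wild-type livers thus stood far above the other 3 groups with no overlap. The difference was 4.13 ± 0.15 (log2 ± SE), or 17.5-fold (adjusted p = 1.11e-12), the difference from null mice on Wy14643 was 4.20 ± 0.15, and the interaction was 3.87 ± 0.21. The next probe sets of the gene by brightness rose by 4.26 and 5.65, and its faintest gave -0.02.

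Its sister gene Slc25a5 encodes ANT2, the ADP/ATP carrier of liver and of dividing cells. It was bright in all 4 groups, with means of 11.98 and 12.20 in wild-type mice on control food and Wy14643 and 11.96 and 12.02 in null mice. Its difference in wild-type mice was 0.22 ± 0.07 and was not called (adjusted p = 0.0306). All 8 probe sets of Slc25a5 gave positive differences in wild type, from 0.17 to 0.51, and the fifth was called in the interaction alone (0.70). Levels of different probe sets cannot be compared, so the data do not show whether ANT1 reached the amount of ANT2 mRNA.

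**Figure D2:**
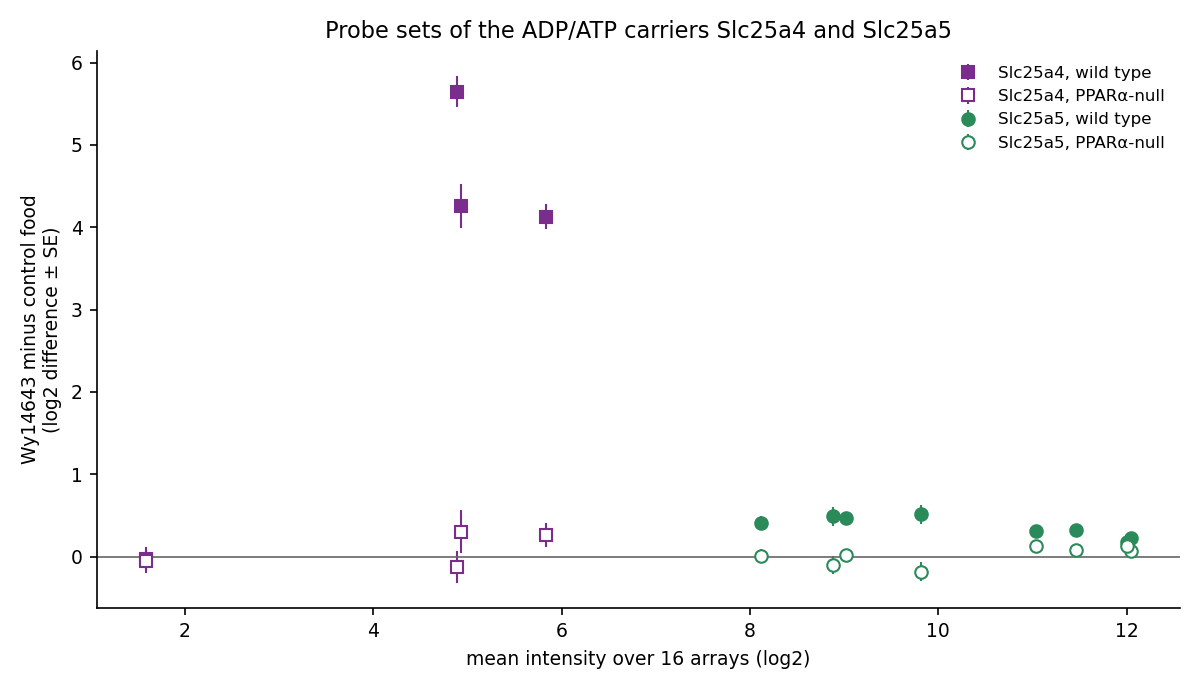
Difference between Wy14643 and control food (vertical axis, log2 ± SE) against mean intensity over 16 arrays (horizontal axis, log2) for each probe set of Slc25a4 (squares) and Slc25a5 (circles). Filled symbols are wild-type mice and open symbols null mice. A group of 3 squares lies between 4.13 and 5.65, and every circle is at or below 0.51.

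The 250 bases before the transcription start of both ADP/ATP carrier genes are shown because these genes share a solute and differed in response. The sequences are RefSeq's on build GRCm38.p6, written 5′ to 3′ along the gene.
Slc25a4 (chr8:46211063-46211312, minus strand): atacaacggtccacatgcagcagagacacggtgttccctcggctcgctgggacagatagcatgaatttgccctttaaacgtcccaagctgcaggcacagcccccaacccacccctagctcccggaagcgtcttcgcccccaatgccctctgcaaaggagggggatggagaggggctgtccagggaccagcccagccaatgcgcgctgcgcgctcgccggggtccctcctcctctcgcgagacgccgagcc
Slc25a5 (chrX:36795347-36795596, plus strand): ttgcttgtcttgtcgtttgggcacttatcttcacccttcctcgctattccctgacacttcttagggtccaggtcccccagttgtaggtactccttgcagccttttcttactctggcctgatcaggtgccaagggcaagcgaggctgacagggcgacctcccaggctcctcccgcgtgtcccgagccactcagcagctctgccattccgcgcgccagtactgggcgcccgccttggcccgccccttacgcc
Capitals would mark AGGTCA or its complement TGACCT, and neither window holds one. The windows are rich in G and C, at 64.8% for Slc25a4 and 61.6% for Slc25a5, where the median over 32851 promoters was 52.4%.

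Other carriers of nucleotides and phosphate gave smaller differences. Of 9 members of this class Slc25a4 alone was called in the wild-type response, where 7.72% of all genes were called higher and 6.74% lower. Slc25a3, the phosphate carrier that supplies ATP synthase, averaged 11.12 and 11.40 in wild-type mice on control food and Wy14643 (0.28 ± 0.07, adjusted p = 0.0104). Between the genotypes on Wy14643 it passed the p threshold but not the fold threshold (0.34 ± 0.07, adjusted p = 0.00192). Slc25a33 carries pyrimidine nucleotides and is placed in a class of its own with Slc25a36. Its wild-type livers had 7.25, 6.92, 6.25 and 7.69 on control food and 8.39, 8.44, 8.63 and 8.58 on Wy14643. Null livers had 7.70, 7.45, 7.74 and 7.89 on control food and 7.87, 7.45, 7.50 and 7.57 on Wy14643. All 4 treated wild-type livers were above every other liver, and the control livers of wild type spread over a wide range. The response was 1.48 ± 0.21 (2.79-fold, adjusted p = 4.5e-05) and the interaction 1.58 ± 0.30. Its difference between genotypes on Wy14643 was 0.91 ± 0.21, and this call was lost in 5 of 16 refits that left out 1 array each, those without wild-type replicate 3 or 4 or null replicate 2, 3 or 4 on Wy14643 (adjusted p up to 0.0145).

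**Figure D3:**
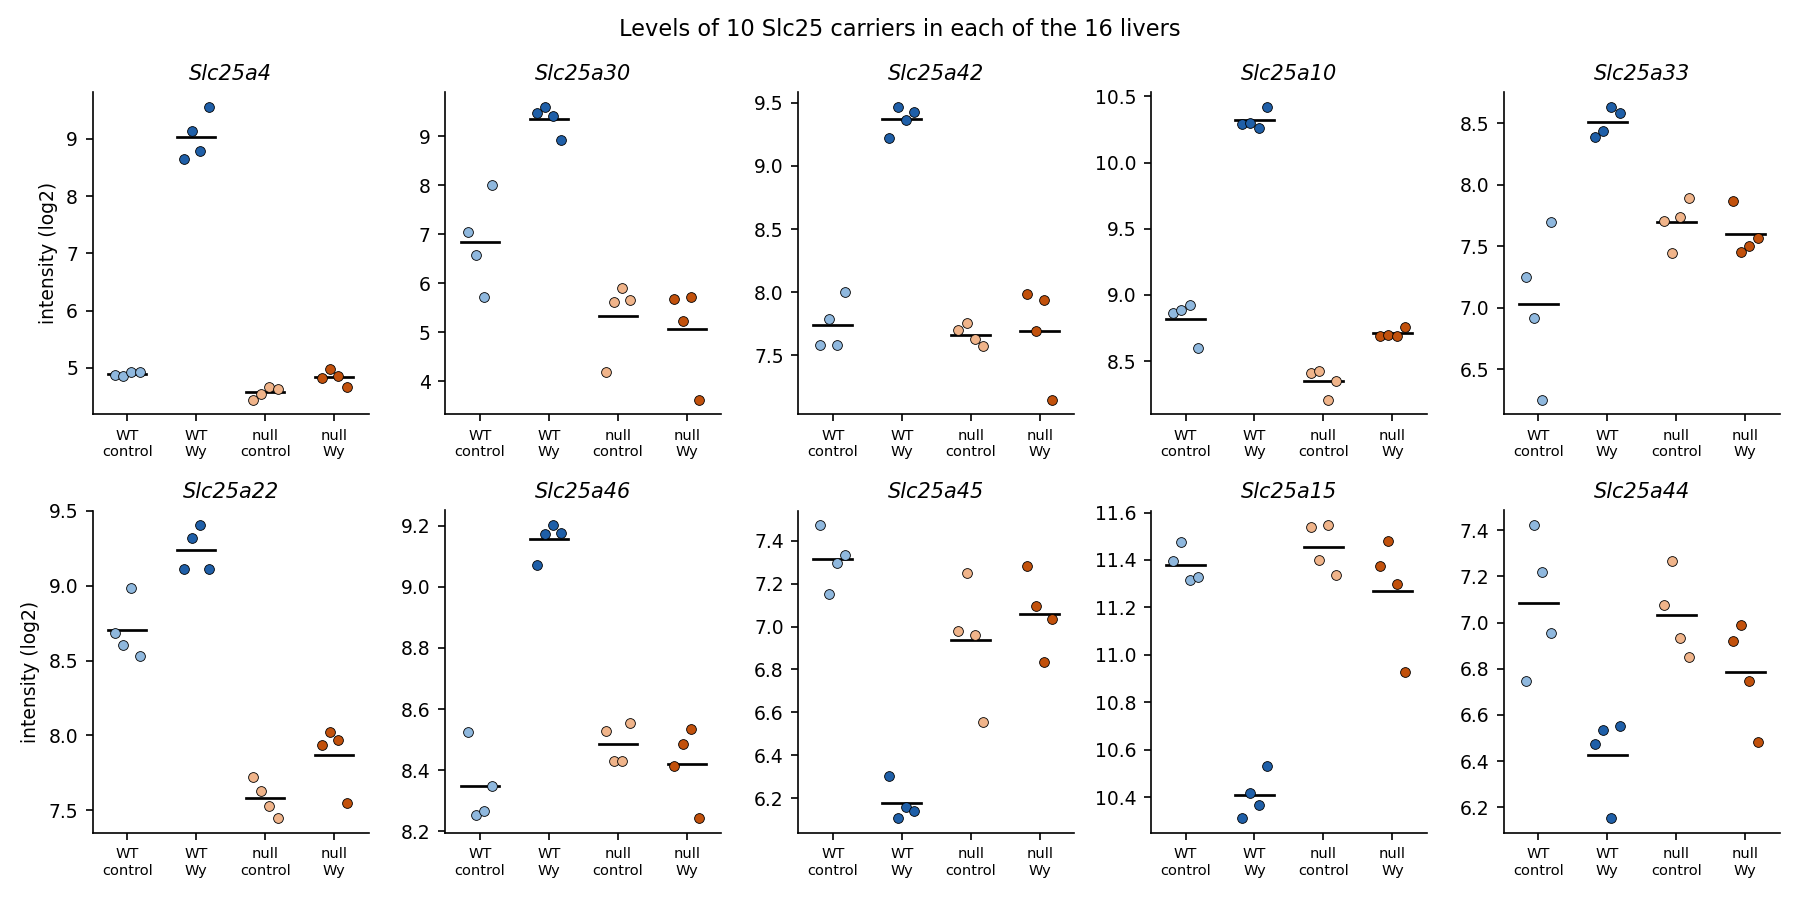
Level of 10 carriers in each of 16 livers (vertical axes, log2 intensity, own range per panel), by group on the horizontal axis, with 4 livers per group as points and their mean as a bar. Slc25a4, Slc25a30, Slc25a42, Slc25a10, Slc25a33 and Slc25a46 are highest in wild-type mice on Wy14643, Slc25a22 differs by genotype on both diets, and Slc25a45, Slc25a15 and Slc25a44 are lowest in wild-type mice on Wy14643.

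Among the 7 measured carriers of cofactors, Slc25a42 and Slc25a32 were called higher in treated wild type, beside 7.72% of all genes. Slc25a42 exchanges coenzyme A for adenine nucleotides, and coenzyme A is the partner on which fatty acids are oxidised. Levels were 7.59, 7.79, 7.58 and 8.01 in wild-type livers on control food and 9.22, 9.47, 9.36 and 9.42 on Wy14643. In null livers they were 7.70, 7.75, 7.63 and 7.57 on control food and 7.99, 7.69, 7.94 and 7.15 on Wy14643. Only the treated wild-type group lay above 9, and the other groups overlapped. The response was 1.63 ± 0.15 (3.09-fold, adjusted p = 2.83e-07), with 0.03 ± 0.15 in null mice and an interaction of 1.60 ± 0.21. A second probe set of the gene, with a mean of 2.22 over all arrays, gave 0.16 and an interaction of -0.11 and was not called.

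Slc25a32, the folate and FAD carrier, was lower on the scale but moved in the same way. Its mean rose from 3.86 ± 0.24 to 5.61 ± 0.46 in wild-type mice (SD, n = 4) and was 3.75 ± 0.29 and 3.81 ± 0.33 in null mice. The difference of 1.75 ± 0.21 (SE; 3.37-fold, adjusted p = 8.02e-06) was matched by 1.70 in its second probe set. Slc25a26 imports S-adenosylmethionine, the donor of methyl groups. It averaged 4.03 ± 0.20 and 4.58 ± 0.09 in wild-type mice and 4.23 ± 0.19 and 4.00 ± 0.22 in null mice (SD, n = 4), and was called between genotypes on Wy14643 (0.59 ± 0.13) and in the interaction (0.79 ± 0.18). Its second probe set was called in the wild-type response as well (0.76). The first of these calls was lost in 3 of 16 refits without 1 array (wild-type replicate 3 or 4 or null replicate 4 on Wy14643, down to 0.48) and the other in 8 of 16, with an adjusted p of at most 0.0160. Wild-type replicates 1 and 4 and null replicates 1, 2 and 3 on control food and wild-type replicates 1, 3 and 4 on Wy14643 were the arrays behind the latter losses. Among the other 4 measured carriers of this class, Slc25a39, linked to glutathione import, and Slc25a16 were bright and not called, with wild-type differences of 0.15 and -0.10. Slc25a51, the NAD carrier, gave -0.18 ± 0.23 in its brightest probe set, but another was called lower in wild-type mice (-1.28), so its probe sets disagree.

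Slc25a10, the dicarboxylate carrier, exchanges malate and succinate for phosphate and supplies cytosolic malate for gluconeogenesis and lipid synthesis. Wild-type livers had 8.86, 8.89, 8.92 and 8.60 on control food and 10.30, 10.30, 10.27 and 10.42 on Wy14643. Null livers had 8.41, 8.43, 8.21 and 8.35 on control food and 8.69, 8.70, 8.69 and 8.76 on Wy14643. No liver of any group overlapped the range of treated wild type, and within null mice the treated livers were above the controls. The response was 1.503 ± 0.088 in wild type (2.83-fold, adjusted p = 7.55e-10) and 0.36 ± 0.09 in null mice (adjusted p = 0.150), and the interaction was 1.14 ± 0.12. On control food wild type exceeded null by 0.47 ± 0.09, which passed neither threshold (1.39-fold, adjusted p = 0.0136). The second probe set gave 1.46 and 0.31 for the responses. Slc25a11, the oxoglutarate carrier of the malate-aspartate shuttle, was not called (0.35 ± 0.10 in wild type, adjusted p = 0.0213).

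Slc25a30, a relative of the uncoupling proteins first found in kidney, had the widest spread between livers. Wild-type livers had 7.04, 6.58, 5.71 and 8.01 on control food and 9.47, 9.60, 9.40 and 8.92 on Wy14643. Null livers had 4.19, 5.61, 5.90 and 5.65 on control food and 5.68, 5.23, 5.71 and 3.62 on Wy14643. Treated wild type stood above all other livers despite this scatter. The response was 2.51 ± 0.48 (5.71-fold, adjusted p = 0.000888) and the difference from null mice on Wy14643 was 4.29 ± 0.48. The interaction of 2.79 ± 0.69 had an adjusted p of 0.0107 and missed the threshold, while the next 3 probe sets were called in it with 3.38, 3.48 and 2.79. The other members of this class were faint. Slc25a14 was dim in treated wild type (1.96) and lower there than in null mice on Wy14643 (2.56) by at least 0.32, a call lost in 7 of 16 refits without 1 array (each of the 4 wild-type arrays and null replicates 1, 3 and 4 on Wy14643, adjusted p up to 0.0246). Slc25a27 was not called.

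The 5 carriers called lower in treated wild type were all placed in classes named for amino acids. Slc25a48 was placed there by assumption, so its fall says nothing of amino acid transport. Whether these classes differ from the others was not tested. Slc25a15 carries ornithine into the matrix in exchange for citrulline and is a step of the urea cycle. Levels were 11.39, 11.48, 11.32 and 11.33 in wild-type livers on control food and 10.31, 10.42, 10.37 and 10.53 on Wy14643. In null livers they were 11.54, 11.40, 11.55 and 11.34 on control food and 11.37, 11.48, 11.30 and 10.93 on Wy14643. The treated wild-type livers were below all others. Slc25a15 fell by 0.97 on the log2 scale (SE 0.11, 1.96-fold, adjusted p = 2.81e-06), and the interaction was -0.79 ± 0.15. Its second probe set gave -0.95 in wild type, with an interaction of -0.60 that was not called (adjusted p = 0.0494). Cps1, the first enzyme of the urea cycle and a hepatocyte marker, was called lower in the same comparison.

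Slc25a45 belongs by sequence with the carriers of basic amino acids. Wild-type livers had 7.47, 7.15, 7.29 and 7.33 on control food and 6.30, 6.11, 6.16 and 6.14 on Wy14643. Null livers had 6.98, 7.25, 6.96 and 6.56 on control food and 7.28, 7.10, 6.83 and 7.03 on Wy14643. Again the treated wild-type livers were the lowest with no overlap. The difference was -1.14 ± 0.13 (2.2-fold, adjusted p = 3.85e-06), and the interaction of -1.26 ± 0.18 was the most negative of the family. Of the other 3 carriers in this class none was called in any comparison, and the liver-specific Slc25a47 gave 0.43 ± 0.13 in wild type (adjusted p = 0.0213).

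Of 7 carriers placed in the class of aspartate, glutamate, glycine and other amino acids 3 were called lower in treated wild type and 0 higher. Over all genes 6.74% were called lower and 7.72% higher. The placing of Slc25a48 in this class was an assumption and was not tested. Slc25a44 carries branched-chain amino acids. Its livers had 6.74, 7.42, 7.22 and 6.96 in wild type on control food and 6.47, 6.53, 6.15 and 6.55 on Wy14643, against 7.08, 7.27, 6.93 and 6.85 and then 6.92, 6.99, 6.75 and 6.48 in null mice. The treated wild-type livers lay under their controls, but overlapped with treated null mice. The response was -0.66 ± 0.15 (adjusted p = 0.00395), and the call was lost without wild-type control replicate 2 (-0.55) or 3 (-0.61) or treated wild-type replicate 3 (-0.57). Neither its difference from treated null mice (-0.36, adjusted p = 0.116) nor its interaction (-0.41, adjusted p = 0.274) was called. Slc25a38 imports glycine for haem synthesis and averaged 5.24 ± 0.20 and 4.59 ± 0.25 in wild type and 5.50 ± 0.09 and 5.58 ± 0.04 in null mice (SD, n = 4). It fell by 0.65 (SE 0.12) in wild type and differed by -0.999 ± 0.120 from treated null mice. Its interaction of -0.74 ± 0.17 was called with all arrays but in only 3 of 16 refits without 1 array, those without wild-type control replicate 1, treated wild-type replicate 4 or null control replicate 1. Slc25a48, a less studied member, averaged 3.05 ± 0.20 and 2.41 ± 0.29 in wild type, and its response of -0.64 ± 0.13 fell short of the fold threshold without wild-type control replicate 1 or treated wild-type replicate 2 (-0.56 each). It was lost too with the mean of its probe sets (-0.42) and with its second probe set, which was dim in both wild-type groups.

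Slc25a22, a glutamate carrier, differed by genotype on both diets. Wild-type livers had 8.68, 8.61, 8.99 and 8.53 on control food and 9.11, 9.32, 9.40 and 9.11 on Wy14643. Null livers had 7.72, 7.63, 7.53 and 7.45 on control food and 7.94, 8.03, 7.97 and 7.55 on Wy14643. Every wild-type liver was above every null liver. The genotype difference was 1.12 ± 0.12 on control food (2.17-fold, adjusted p = 6.09e-05) and 1.36 ± 0.12 on Wy14643 (2.58-fold, adjusted p = 1.99e-07). The response in wild type was 0.53 ± 0.12, under the fold threshold, that in null mice 0.29 ± 0.12, and the interaction was not called (0.25 ± 0.18, adjusted p = 0.466). Citrin, Slc25a13, the aspartate-glutamate carrier of liver, was bright and not called, with means of 9.88 and 10.02 in wild type and 9.58 and 9.82 in null mice.

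A pair of less characterised carriers rose in treated wild type. Slc25a46 lies in the outer membrane and takes part in mitochondrial fission and fusion. Its wild-type livers had 8.53, 8.25, 8.26 and 8.35 on control food and 9.07, 9.17, 9.20 and 9.18 on Wy14643, and its null livers 8.53, 8.43, 8.43 and 8.55 and then 8.41, 8.49, 8.54 and 8.24. Treated wild type alone exceeded 9. The response was 0.81 ± 0.09 (1.75-fold, adjusted p = 2.39e-06) and the second probe set gave 0.78. Slc25a34, an orphan carrier, rose from 2.57 ± 0.35 to 3.62 ± 0.32 in wild type (SD, n = 4; difference 1.06 ± 0.17 SE) and was dim in both null groups, so that treated wild type exceeded treated null mice by at least 1.38 (2.61-fold). Its interaction of 1.01 ± 0.24 was lost in 12 of 16 refits without 1 array, with an adjusted p of up to 0.0216, and held without wild-type control replicate 2 or 4, treated wild-type replicate 4 or null control replicate 2.

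Among called carriers with a matched promoter, only Slc25a34 and Slc25a45 hold the letters AGGTCA on either strand in their upstream 250 bases. No promoter was matched for the called carriers Slc25a26, Slc25a32, Slc25a44 and Slc25a46. The windows of Slc25a34 and Slc25a45 are shown with those letters in capitals (RefSeq, GRCm38.p6, 5′ to 3′ along the gene).
Slc25a34 (chr4:141623835-141624084, minus strand): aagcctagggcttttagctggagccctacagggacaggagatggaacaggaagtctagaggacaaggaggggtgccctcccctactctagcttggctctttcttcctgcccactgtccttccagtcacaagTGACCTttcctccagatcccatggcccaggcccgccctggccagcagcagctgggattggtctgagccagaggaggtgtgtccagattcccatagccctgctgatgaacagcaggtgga
Slc25a45 (chr19:5877572-5877821, plus strand): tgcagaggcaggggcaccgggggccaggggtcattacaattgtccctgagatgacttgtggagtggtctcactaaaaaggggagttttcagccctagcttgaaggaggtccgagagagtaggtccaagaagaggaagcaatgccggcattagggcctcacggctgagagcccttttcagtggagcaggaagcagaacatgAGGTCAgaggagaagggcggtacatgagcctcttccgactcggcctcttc
The match lies 119 bases before the start in Slc25a34 and 50 bases in Slc25a45, where it opens aggtcagaggaga, a direct repeat with 2 mismatches of 12 fixed bases. Of 40 promoters of 31 matched carriers 4 (10%) held AGGTCA or its complement within 300 bases around the start, beside 16.3% of all 32851 promoters. An exact repeat was in 0 of the 40 and in 0.0396% of all, and one with at most 2 mismatches in 2 (5.0%) and in 3.86% of all. The other carrier promoters with the letters were those of Slc25a39 and Slc25a47, which were called in no comparison. Slc25a47 held the other repeat with 2 mismatches. These are letter matches in a short window and say nothing of binding by a receptor, which can act from a distance.

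Slc25a23, a calcium-regulated carrier of ATP-Mg and phosphate, had 2 livers far from the rest of their groups. Wild-type livers had 8.49, 9.48, 9.52 and 9.46 on control food and 8.14, 8.18, 8.26 and 8.26 on Wy14643. Null livers had 9.45, 9.51, 9.33 and 9.41 on control food and 9.27, 9.31, 9.50 and 7.89 on Wy14643. The treated wild-type livers lay between 8.14 and 8.26, wild-type control replicate 1 lay near them, and treated null replicate 4 below them. The response of -1.02 ± 0.28 was not called (adjusted p = 0.0125). It was called without wild-type control replicate 1 (-1.27) and without treated null replicate 4 (adjusted p = 0.0003), and the genotype difference on Wy14643 went from -0.78 to -1.15 and was called without the latter array. These arrays were singled out for these very values, so the calls without them are descriptions. With all arrays kept, the wild-type response was called with a filter on mean log2 above 4 or 6, quantile normalization or array weights. It was also called with the compared groups alone, a fit without any null array and so without treated null replicate 4. Treated null replicate 4 was also the lowest of its group for, among others, Slc25a25 (6.35), Slc25a30 (3.62), Slc25a42 (7.15) and Slc25a15 (10.93). The same array was the highest of its group for, among others, Slc25a5 (12.07), Slc25a10 (8.76), Slc25a11 (8.98), Slc25a12 (7.19) and Slc25a13 (9.91). It had the highest median intensity of all arrays. Slc25a25, a related carrier, ranged from 6.35 to 9.61 and was not called.

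**Figure D4:**
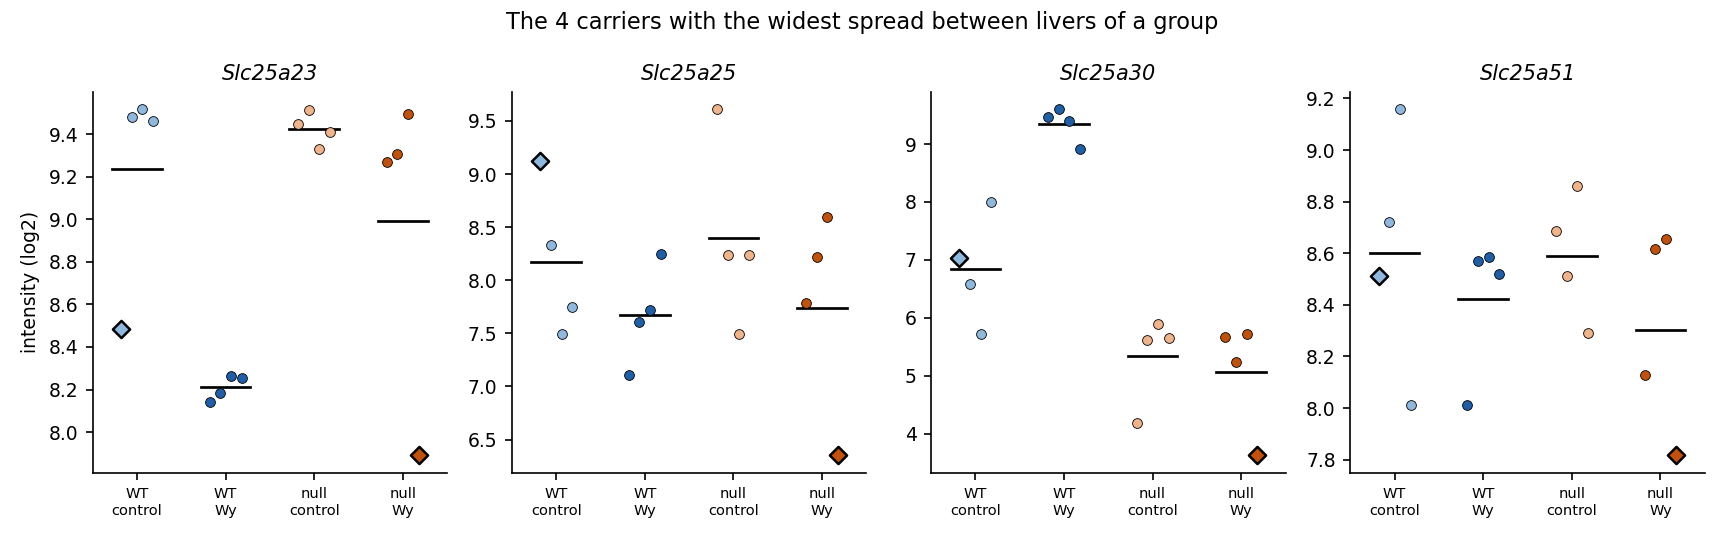
Level (vertical axes, log2 intensity) of the 4 carriers with the largest pooled spread within groups, by group on the horizontal axis, with 4 livers per group as points and their mean as a bar. Diamonds are wild-type control replicate 1 and null Wy14643 replicate 4. In Slc25a23 these livers, at 8.49 and 7.89, lie apart from the rest of their groups, and Slc25a25 overlaps between all groups.

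The mitoferrins Slc25a37 and Slc25a28, which import iron, were not called, with wild-type differences of -0.07 and 0.32. Within the rest of the carriers never called, Slc25a12, the aspartate-glutamate carrier of muscle and brain, gave -0.57 ± 0.12 between genotypes on Wy14643, a fold just under the threshold (adjusted p = 0.00184). A call in the interaction does not follow from a call in wild type alone, and 10 of the 13 carriers of the wild-type response had both, beside 63.8% of all genes called in that response.

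Carriers are made in the cytosol and reach the inner membrane through the TOM pore, small chaperones of the intermembrane space and the TIM22 complex. Of 11 genes of this route 6 were called higher in treated wild type and 0 lower, and 0 were called in null mice (all genes in wild type, 7.72% higher and 6.74% lower). Timm8a1 rose by 1.07, Tomm40, the pore, by 1.001, Timm22, which inserts carriers, by 0.98 and Timm10, a chaperone, by 0.91. Timm9 and Tomm70a, the receptor for carriers, rose by 0.78 and 0.72. In the interaction 5 of them were called, all but Timm9 (5.38% of all genes were called higher). The median difference of the 11 genes was 0.72 in wild type and 0.06 in null mice, beside -0.03 and 0.01 over all genes. Among 7 relatives outside the 41, Slc25a20, Ucp3 and Mtch2 were called higher in treated wild type, beside 7.72% of all genes. Ucp3 was dim in wild-type controls (2.17) and averaged 2.75 on Wy14643. Its difference was therefore at least 0.51 (1.43-fold), a bound under the fold threshold. Slc25a20, the carnitine-acylcarnitine carrier, had 9.49 and 11.46 in wild type and 7.59 and 8.13 in null mice.

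**Figure D5:**
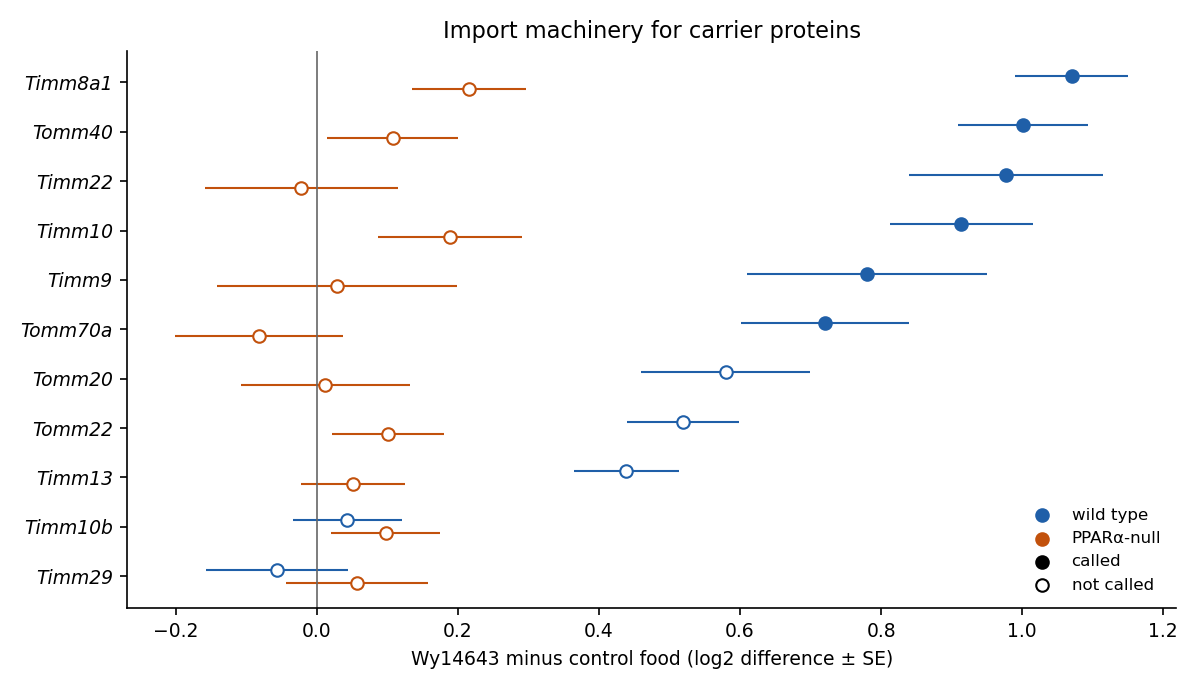
Response to Wy14643 (horizontal axis, log2 difference from control food ± SE) of 11 genes for the import of carrier proteins, in wild-type mice (blue) and null mice (orange), 4 livers per group. Filled points were called. In wild type 6 genes lie between 0.72 and 1.07 and are filled, and in null mice none is.

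Markers of other cells moved with treatment in wild-type mice, and their part in the carrier values was not tested. Over all genes 7.72% were called higher and 6.74% lower in that response. In whole liver, fewer cells of a type and less RNA per cell cannot be told apart. The hepatocyte markers had a summed linear intensity of 56576 to 58041 in wild-type controls and 45283 to 51672 on Wy14643, with Cps1 called lower among 7. Of 8 Kupffer cell markers 6 were called lower (802 to 972, then 445 to 531), and of 6 stellate cell markers 3 (1494 to 1601, then 960 to 1012). The endothelial sum was 1061 to 1238 and then 824 to 973, with Lyve1 called higher (2.63) and Clec4g called lower (-0.62) among 7 markers. Of 2 pancreas markers Cela1 was called lower (-2.17), and their sum was 620 to 689 and then 93 to 577. None of the cholangiocyte, lymphocyte and adipocyte markers was called. Beside Slc25a38, which serves haem synthesis, the erythroid sum was 499 to 605 in wild-type controls, 97 to 131 on Wy14643 and 648 to 773 in treated null mice. Of 4 erythroid markers only Alas2, the erythroid enzyme of haem synthesis, was called in treated wild type, and it was lower. Epb42 was not called, Hba-a1 and Slc4a1 were dim throughout, and the median difference of the 4 was -0.04. Beside Slc25a4, the muscle isoform, 0 of 4 muscle markers were called, Ckm and Myh6 were dim in all groups, and the sum was 14 to 17 in controls and 14 to 31 on Wy14643. Of 4 markers of dividing cells 3 were called higher (16 to 20, then 116 to 411).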

How the data were processed

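Liver RNA of 16 mice was hybridized to 1 array each, with no pooling. The deposited tables hold, for each array, an intensity for every probe set. Per the labels' processing notes the authors used GCRMA 2.20, a method of background correction, quantile normalization and probe summary. The deposited intensities were linear by their range (array medians from 4.43 to 4.72), so log2 was taken with no offset. Quantile normalization hides a change shared by most genes. Of 45101 probe sets 64 controls were left out. GEO's platform annotation named the genes, and 34945 probe sets had 1 gene.

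Each of 45037 probe sets was fitted with limma 3.58.1 (R 4.3.3) with 1 mean per group and empirical Bayes moderation. P-values, two-sided, were adjusted by Benjamini-Hochberg over all of them. Background shares count 1 probe set per gene. Called carriers with a highest group mean of at least 6 are given by liver, other called ones by group mean, and uncalled ones mostly by counts, with values from a mean of 9 and for a few chosen after their values were seen. A difference from a dim group is given against 2.24. The carriers, classes and lists were chosen with earlier results of these data known. The fit was tested on simulated data. Only 4 arrays per group limit the precision.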

Additional observations from a re-analysis of the deposited data

Results flagged for a closer look

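Several carriers had 1 liver apart from the other 3 of its group, by a gap test that chance meets in about 1 in 20 groups. It marked 8 of 96 groups tested in 24 carriers. In PPARα-null mice on Wy14643 these were a high liver of Slc25a10 (8.76), of Slc25a32 (4.30) and of Slc25a16 (9.48), and a low liver of Slc25a23 (7.89). On control food they were a low liver of Slc25a30 in null mice (4.19) and low livers of Slc25a23 (8.49) and Slc25a3 (11.06) in wild type. Treated wild type had a high liver of Slc25a16 (9.31).

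The responses of the genotypes differed by the interaction for 11 carriers. The wild-type response minus the null response was 3.87 in Slc25a4, 1.69 in Slc25a32, 1.60 in Slc25a42 and 1.58 in Slc25a33. It was 1.14 in Slc25a10, 1.01 in Slc25a34, 0.87 in Slc25a46 and 0.79 in Slc25a26. The difference was negative in Slc25a45 (-1.26), Slc25a15 (-0.79) and Slc25a38 (-0.74). Of 16 refits without 1 array, the call was lost in 13 for Slc25a38, 12 for Slc25a34 and 8 for Slc25a26.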

How the results depend on the processing

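The numbers of called carriers, 13 in the wild-type response, 0 in null mice, 15 between genotypes on Wy14643, 1 on control food and 11 in the interaction, stayed within 1.5 times under most settings. A fold over 2 left 8, 7 and 7 in the wild-type response, between genotypes on Wy14643 and in the interaction. A filter on mean log2 above 6, which tests only 22 carriers, left 8 between genotypes on Wy14643 and 7 in the interaction. Without 1 array the counts were 12 to 14, 0 to 0, 12 to 15, 1 to 1 and 8 to 10 in that order. Without both arrays that stood apart, a setting chosen after seeing the data, they were 13, 0, 13, 1 and 10. Correlations of same-numbered arrays ran from -0.12 to 0.19. Differently numbered arrays were not compared, so this range cannot show whether replicate numbers pair the mice. With replicate number as a block the counts were 13, 0, 14, 1 and 9. Of 40 called differences 32 were called in all 16 refits without 1 array, and of 1086 alternative values 91 lost the call and 1 reversed. That was the second probe set of Slc25a42 in the interaction (-0.11), and the cause was not tested. Adding 16 before the log left 9 in the wild-type response, where Slc25a34, Slc25a38, Slc25a44 and Slc25a48 were lost, and log differences of faint carriers depend on the background correction.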

Other observations

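Other genes of mitochondrial membrane transport were less uniform. Of 17 measured, 5 were called higher and 2 lower in treated wild-type mice, and 0 in null mice. Over all genes 7.72% were called higher and 6.74% lower in wild-type mice, and 0.0275% and 0% in null mice. Cpt1a and Cpt2, the carnitine palmitoyltransferases on either side of the carnitine carrier, rose by 1.14 and 1.86, and Tspo, Micu2 and Abcb8 rose by 0.63, 0.63 and 0.69. Abcb10, a transporter linked to haem synthesis, fell by 0.69 and the sideroflexin Sfxn5 by 0.63. The porins Vdac1, Vdac2 and Vdac3 of the outer membrane gave 0.04, 0.27 and 0.04 and were not called, and neither was the pyruvate carrier subunit Mpc1 (0.11).

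After group means were removed, deviations over the 16 arrays were compared between carriers. All pairs of the 23 carriers with a highest group mean of at least 6 were taken. At the extremes, Pearson's r was 0.80 for Slc25a12 and Slc25a13, 0.79 for Slc25a23 and Slc25a42, 0.79 for Slc25a25 and Slc25a46 and -0.71 for Slc25a10 and Slc25a30. These pairs were picked from many for their extreme values. Treated null replicate 4 was the lowest of its group for both Slc25a23 (7.89) and Slc25a42 (7.15). The correlations are descriptions of values that share arrays and normalization, and no test was made. In the gene table, Slc25a29 and Slc25a47, Slc25a41 and Slc25a23, and Slc25a54 and Slc25a24 are neighbours with 0 protein-coding genes between them. None of these genes was called in any comparison.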
